A study of Mus musculus with 30 samples.

Results

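RNA from MOC1 tumours was compared with RNA from MOC1 cells kept in culture. MOC1 is a mouse oral squamous carcinoma line that forms tumours in C57BL/6J mice, and the 2 groups hold 3 libraries each, 6 of the 30 samples of the series. The labels give both groups the strain C57BL/6J and no treatment, and name no engineered allele. The culture medium was a mix of IMDM and Ham's F12 with 5% serum, EGF at 5 ng/ml, hydrocortisone at 400 ng/ml and insulin. The tumour libraries are the columns numbered 3, 4 and 5 of one deposited table, and the culture libraries are the columns numbered 4, 5 and 6 of another. Genes were matched by Ensembl identifier: 55573 identifiers stood in both tables, and the 15645 with a level of at least 1 TPM, a length-normalised transcript abundance, in at least 3 of the 6 libraries were tested.

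These limits hold for every value below. The groups come from 2 tables that stand as separate batches, so tissue against culture is the same split as table against table, and the effects of both cannot be told apart. The names of the culture columns carry the tag "plusifng", while the labels mention no interferon gamma, so the sources used here leave it unstated whether the cultures received interferon gamma. The labels do not say whether the libraries of a group come from separate mice or separate cultures, and p-values then measure only the spread between these libraries, which may be technical. A tumour is a mixture of carcinoma cells and host cells, and in bulk RNA fewer cells of a type and less RNA per cell cannot be told apart. TPM is a share of each library's own total, so read depth is unknown and no counting interval is given.

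Stratified squamous epithelium is renewed from basal cells that express keratins 5 and 14. Cells that leave the basal layer make other keratins and then the proteins of the cornified envelope, and carcinomas of the mouth keep parts of this programme. In a tumour these cells share space with fibroblasts, vessels and immune cells. Immune cells release interferon gamma, which induces guanylate-binding proteins, immunity-related GTPases, chemokines and antigen presentation. A culture dish offers growth factors, oxygen, nutrients and a stiff surface in place of that tissue.

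Differences were tested on log2(TPM + 1) with limma and Benjamini-Hochberg adjustment, and calls required a difference of at least 1 in size together with an adjusted p no greater than 0.05. That scale understates the change of low genes. A gene under 1 TPM in every library of one group passed the filter through the other group alone and so had to differ; for such genes values are given without a p-value, and a list's count is a description that is no support where it holds them. By this rule 3593 genes (23.0%) were higher in the tumours and 3078 (19.7%) were lower. The counts of the lists below are to be read against these shares, since a count near them says nothing particular about a list. The median difference over all tested genes was 0.03. The libraries of each group did not overlap for most genes: all tumours lay above all cultures for 6494 genes (41.5%) and below them for 6247 (39.9%). Across the tested genes, which are not independent replicates, log2 values correlated with Pearson's r of 0.982 to 0.985 between tumour libraries, 0.994 to 0.995 between culture libraries and 0.742 to 0.758 between the groups. Mitochondrial genes held 4.87% to 5.90% of TPM in the tumours and 2.15% to 2.27% in the cultures, and ribosomal protein genes held 19.3% to 21.7% and 14.3% to 15.5%.

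Many of the genes called lower were not protein-coding. Of the 1239 tested genes that RefSeq lists as pseudogenes, 874 (70.5%) were lower and 69 (5.57%) were higher, against 1697 lower (13.5%) and 2935 higher (23.3%) of 12570 protein-coding genes. Over MOC1 and MOC1E1, the lines of the series with bulk RNA, 108 identifiers were listed at 0 in all 6 tumour libraries. These held at least 10 TPM in all 6 culture libraries, and 11 identifiers showed the opposite. By the rule for named genes, 11 of the 12 largest falls were models of this kind, among them Mir6236, Bc1, Rpl10-ps1 and Rps12-ps24. A difference in how the 2 tables were quantified would give this pattern too, and its part was not tested. Among protein-coding genes without mitochondrial, ribosomal protein and histone genes, rescaled to a common total, 5069 of 12950 (39.1%) were called, and 71.91% of those calls were higher, against 53.86% of calls in the deposited values. The median difference of those genes was 0.28, and the rescaling by itself moved the median by 0.15. The results that follow concern protein-coding genes, so their counts are also to be read against the 23.3% higher and 13.5% lower of those genes.

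The tumours held RNA of many host cell types that the cultures lacked. In the sentences that follow, tumour values are given in the order of libraries 3, 4 and 5 and culture values in the order of libraries 4, 5 and 6. Members of these lists mostly passed the filter through the tumours alone, and their counts describe the mixture. All 10 fibroblast markers were higher, with a median difference of 4.27 and a summed level of 264.1 to 370.3 TPM against 0.43 to 1.17 TPM. Thy1, a surface glycoprotein of fibroblasts and T cells, was at 96.7, 158 and 142 TPM in the tumours and listed at 0 in every culture. Matrix followed the same direction: 11 of 12 fibrillar and fibril-associated collagens were higher, with a median of 6.26. Col1a1, a chain of collagen I, was at 544, 1042 and 688 TPM in the tumours and 0.57, 0.03 and 0.08 TPM in the cultures. Tumour library 4 had the highest and tumour library 3 the lowest Col1a1 value, and all 3 lay far above every culture. Col3a1, the chain of collagen III, was at 467, 869 and 611 TPM against 0.21, 0 and 0.08 TPM, with tumour library 4 again the highest.

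Macrophage RNA differed little among the tumours. All 12 markers of macrophages and monocytes were higher, and their summed level was 1057 to 1133 TPM in the tumours and 11.3 to 19.7 TPM in the cultures. C1qa, a chain of the complement protein C1q that tissue macrophages make, was at 267, 277 and 289 TPM in the tumours and 0.07, 0.52 and 0.17 TPM in the cultures. Lyz2, the lysozyme of myeloid cells, was at 366, 361 and 299 TPM against 7.16, 7.55 and 1.61 TPM. No culture came near a tumour for either gene. All 7 tested neutrophil markers were higher; S100a8, an alarmin of neutrophils that keratinocytes can also make, was at 72.3, 94.7 and 106 TPM against 0.48, 0.25 and 0.13 TPM, while Ly6g, the defining mouse neutrophil antigen, stayed under 1 TPM in every library and was not tested.

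T cell RNA was present at a low level. All 11 tested T cell markers were higher, with a summed level of 50.9 to 66.1 TPM against 5.14 to 6.35 TPM. Cd3g, a chain of the T cell receptor complex, was at 7.19, 7.01 and 5.34 TPM in the tumours and 0.19, 0.16 and 0 TPM in the cultures, and Cd2, an adhesion receptor of T cells, was at 7.56, 6.70 and 5.95 TPM in the tumours and listed at 0 in the cultures. Cd8a and Cd4, the coreceptors of killer and helper T cells, reached 7.61, 5.06 and 4.62 TPM and 2.87, 3.21 and 2.49 TPM in the tumours. Both coreceptors were present in each tumour library. Of 5 tested NK cell markers, 4 were higher and Eomes, a transcription factor of NK and T cells, was lower, at 0.39, 0.43 and 0.30 TPM in the tumours and 2.93, 2.63 and 3.19 TPM in the cultures. Of 10 B and plasma cell markers 2 were tested and 2 were higher, and all 10 were under 1 TPM in every culture. The summed level of the list was 11.99 to 18.14 TPM in the tumours against 0.16 to 0.3 TPM in the cultures. Its member Ms4a1, which encodes the B cell antigen CD20, was listed at 0 in all 6 libraries. Mast cell genes were higher in 7 of 8 cases, with Tpsb2, a tryptase, at 41.4, 22.5 and 28.7 TPM in the tumours and listed at 0 in the cultures. Mcpt1, a protease of mucosal mast cells and one of the 12 largest rises, was at 444, 339.8 and 351 TPM in the tumours and 0, 0 and 0 TPM in the cultures. Mast cell proteases are near copies of each other, so the split of reads among them is uncertain.

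Vessel and muscle genes also set the tumours apart. Of 10 endothelial markers 9 were higher, with Vwf, the von Willebrand factor of vessel walls, at 18.7, 16.8 and 18.8 TPM against 0, 0.01 and 0 TPM. All 10 skeletal muscle genes were higher, and their sum was 474.2 TPM in tumour library 3 and reached 1734 TPM in tumour library 5, against 3.73 to 4.75 TPM in the cultures. Acta1, the actin of skeletal muscle, was at 145, 461 and 514 TPM in the tumours and 0.53, 0.22 and 0.39 TPM in the cultures. Tumour library 3 was the lowest for every muscle gene in the list. Red blood cell genes, with summed levels of 21.6 to 82.5 TPM, were highest in tumour library 3 instead. Hbb-bs, a beta globin, was at 34.5, 10.04 and 6.32 TPM and listed at 0 in the cultures.

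**Figure D1:**
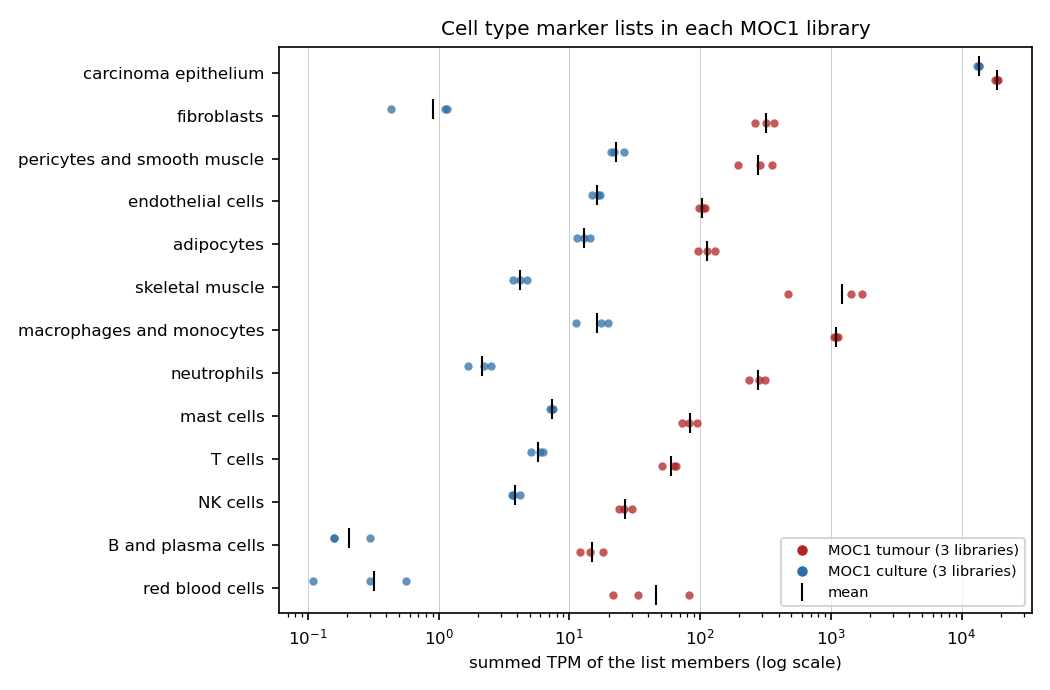
Summed TPM of each cell type marker list (log axis) in the 3 MOC1 tumour libraries and the 3 MOC1 culture libraries; each point is a library and each bar a group mean. Carcinoma epithelium stood at 18050 to 18940 TPM in tumours and 13250 to 13700 TPM in cultures, although its median difference was -0.40. Of its 15 genes, 8 lay lower in every tumour than in any culture and 5 lay higher. Fibroblast markers stood at 264.1 to 370.3 TPM against 0.43 to 1.17 TPM.

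Epithelial RNA was abundant in both groups. Epcam, an adhesion protein of epithelial cells, was at 459.5, 466 and 454 TPM in the tumours and 464, 440.4 and 458 TPM in the cultures, and these ranges overlapped (log2 difference 0.02, SE 0.05, adjusted p = 0.75). Of 15 genes of the carcinoma epithelium list, 3 were higher and 4 lower, with a median of -0.40. Both groups carried the basal keratin Krt5 as an abundant transcript, at 4857, 4887 and 5054 TPM in the tumours and 3423, 3446 and 3399 TPM in the cultures, a difference of 0.53 that did not reach 1. Trp63, the master regulator of stratified epithelium, rose in the tumours, at 128, 115 and 107 TPM against 56.7, 58.6 and 52.3 TPM (2.08-fold). Dsp, which anchors keratin filaments at desmosomes, rose 3.08-fold, and Cldn7, a tight junction protein, fell, at 105, 119 and 98.6 TPM against 392, 362 and 389 TPM. Over 26 tested junction genes 6 were higher, 1 of them under 1 TPM in every culture, and 5 lower, with a median of 0.05. These shares lay near the 23.0% and 19.7% of all tested genes, and protein-coding genes gave 23.3% and 13.5%. The desmosomal cadherins Dsc2 and Dsc3 were 2.79-fold and 3.22-fold higher, and Cldn8, another tight junction protein, was 40.2-fold higher. Ocln, the tight junction protein occludin, fell, at 6.03, 5.59 and 4.52 TPM against 29.9, 30.6 and 29.98 TPM.

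Keratins moved in both directions. Of 19 tested members, 10 were higher, 2 of them under 1 TPM in every culture, and 4 lower. The median difference was 1.15, and Krt1 and Krt76 were under the filter. The 4 that fell were Krt18, Krt8, Krt7 and Krt17. Krt18, the partner of Krt8 in simple epithelium, was at 145, 149.96 and 161 TPM in the tumours and 879, 878 and 988 TPM in the cultures, a 6.03-fold lower level (log2 difference -2.58, SE 0.07, adjusted p = 4.7e-08). Krt8 was at 292, 327 and 311 TPM against 1045, 984 and 1071 TPM, and Krt7, another simple-epithelial keratin, was at 334, 271 and 295 TPM against 949, 903 and 997 TPM. These 3 simple-epithelial keratins were lower in each tumour than in each culture. Krt17, a keratin of wounded and activated epidermis, was at 1563, 1600 and 1549 TPM against 3398, 3109 and 3356 TPM (2.09-fold lower), but its difference was under 1 after the rescaling to protein-coding genes.

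The keratins that rose included those of basal, hyperproliferative and mucosal layers. Krt14, the basal keratin, was at 9566, 10117 and 10368 TPM in the tumours and 3167, 3101 and 3171 TPM in the cultures (3.18-fold higher, adjusted p = 1.9e-07). Krt13, the keratin of the upper layers of oral mucosa, was at 189.6, 214 and 237 TPM against 4.51, 3.50 and 5.58 TPM (47.1-fold). Krt79, found in the funnel of the hair follicle, was at 448, 466 and 448 TPM against 10.4, 12.9 and 12.5 TPM (38.0-fold). Each tumour exceeded each culture many times over for Krt13 and Krt79. The hyperproliferative keratins Krt6b and Krt16 were at 265, 433 and 375 TPM and 183, 224 and 176 TPM in the tumours, against 35.2, 32.4 and 32.99 TPM and 20.5, 20.1 and 19.1 TPM in the cultures. Krt6a, a near copy of Krt6b with which it may share reads, was at 2569, 3025 and 2742 TPM against 1944, 1929.98 and 1945 TPM, a difference of 0.52 that was not called.

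Many genes of squamous differentiation were more abundant in the tumours. Of 30 members 22 were tested, 16 were higher and 1 was lower. Of the 16, 9 were under 1 TPM in every culture and had to be higher, and of the other 13 tested 7 were higher. The list had a median of 2.04 and a summed level of 3268 to 3766 TPM against 696.6 to 707.8 TPM. Calml3, a calmodulin-like protein of differentiating keratinocytes, was at 493, 480.4 and 545 TPM in the tumours and 0.20, 0.68 and 0.70 TPM in the cultures. Krtdap, a secreted protein of the upper epidermis, was at 526, 667 and 749 TPM against 9.94, 11.3 and 7.66 TPM. Sprr1a, a precursor of the cornified envelope, was at 531, 599.9 and 594 TPM against 25.1, 16.9 and 15.8 TPM, and Dmkn, a secreted epidermal protein, rose 9.14-fold. The groups lay far apart for all 4 genes. Ly6d, a surface protein of stratified epithelium and one of the 12 largest rises, was at 1687, 1821 and 1846 TPM against 5.16, 4.38 and 3.56 TPM. Ivl, the envelope protein involucrin, was the member that fell, at 3.64, 3.77 and 3.93 TPM in the tumours and 15.7, 15.3 and 16.2 TPM in the cultures (4.15-fold lower).

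Late cornification genes varied among the tumours. Lor, the envelope protein loricrin, was at 10.5, 10.7 and 34.6 TPM, Krt10, a keratin of suprabasal epidermis, was at 7.90, 10.1 and 37.95 TPM, and Krt1, its partner, was at 2.31, 0.99 and 16.4 TPM, with tumour library 5 the highest for all 3. The call of Krt10 was lost without tumour library 5, where its difference was 0.79, and also without any 1 of the culture libraries. Markers of hair follicle keratinocytes moved with this list: 3 of 10 were tested and all 3 were higher, 2 of them under 1 TPM in every culture. Tchh, the follicle protein trichohyalin, led them, at 23.99, 18.3 and 24 TPM against 1.48, 1.41 and 1.54 TPM. Krt71, a keratin of the inner root sheath chosen here after its values were seen, was at 0.42, 0.99 and 12.1 TPM in the tumours. The part of host skin in the differentiation list was not tested.

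**Figure D2:**
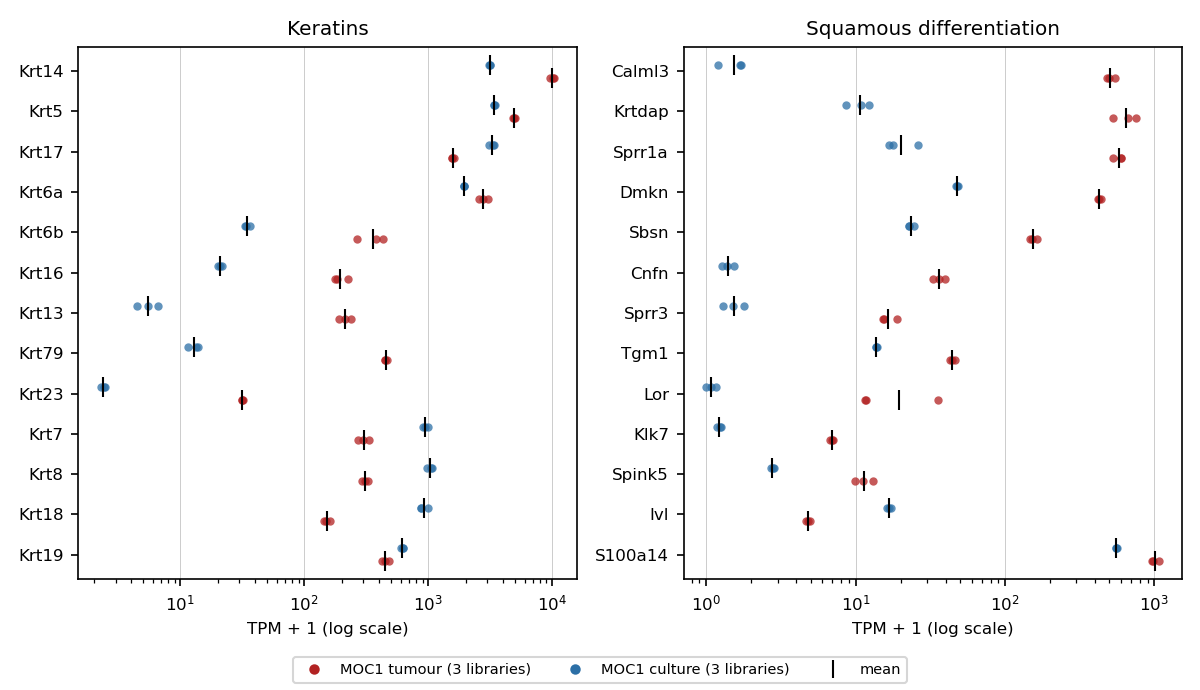
TPM + 1 (log axis) of keratins and of squamous differentiation genes in the 3 MOC1 tumour and 3 MOC1 culture libraries; each point is a library and each bar a group mean. Krt8, Krt18, Krt7, Krt17 and Ivl lay lower in the tumours, whereas Krt13, Krt79, Calml3 and Krtdap lay higher, with Calml3 at 493, 480.4 and 545 TPM against 0.20, 0.68 and 0.70 TPM.

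Interferon gamma-induced genes were mostly lower in the tumours than in the cultures. Of 32 members 31 were tested, 23 were lower, 1 was higher and 7 were not called, with a median of -1.63. Of the 23, 3 were under 1 TPM in every tumour. The list had a summed level of 1813 to 2178 TPM in the tumours against 7945 to 8348 TPM in the cultures. Because the culture columns carry "plusifng", this contrast sets tumours against cultures that may have been given the cytokine. Ifng itself, the gene of the cytokine, was at 1.86, 1.35 and 1.39 TPM in the tumours and listed at 0 in the cultures. Ifngr1, a receptor chain, was at 70.2, 68.1 and 53.7 TPM against 35.4, 30.8 and 31.1 TPM, a difference of 0.95 that was not called. Irf1, a transcription factor of the pathway, was at 134, 127 and 121 TPM against 395, 428 and 394 TPM (3.19-fold lower in the tumours).

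Promoters of this list are shown because they carry the motifs through which the pathway acts. The GAS motif, the interferon gamma-activated site, was searched as TTCNNNGAA, and the core of the ISRE, which interferon regulatory factors bind, as TTTC, any 2 bases and TTTC, on both strands of the 250 bases before the start site; in the stretches shown no base belongs to both motifs. RefSeq promoters (GRCm38.p6) matched 17 of the 32 members. GAS was in 8 (47.1%) and the ISRE core in 11 (64.7%), against 8.13% and 3.46% of 27025 genes. Of the 13 matched members that were lower, 7 held GAS and 9 the ISRE core. A match describes the letters only. In the stretches below capitals mark GAS or the ISRE core, each stretch is written 5′ to 3′ on the gene's strand, and the first 4 belong to immunity-related and T cell-specific GTPases.
Igtp: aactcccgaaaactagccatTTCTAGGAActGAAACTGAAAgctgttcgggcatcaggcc
Irgm2: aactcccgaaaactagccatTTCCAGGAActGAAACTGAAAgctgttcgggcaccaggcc
Tgtp1: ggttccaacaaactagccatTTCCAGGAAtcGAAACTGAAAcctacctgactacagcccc
Tgtp2: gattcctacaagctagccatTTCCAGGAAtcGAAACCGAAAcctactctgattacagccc
Gbp2: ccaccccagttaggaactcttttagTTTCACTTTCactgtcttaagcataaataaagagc
Irf1: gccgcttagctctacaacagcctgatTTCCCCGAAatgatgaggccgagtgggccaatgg
They lie at chr11:58199491-58199550 (Igtp, plus strand), chr11:58214882-58214941 (Irgm2, plus), chr11:48992295-48992354 (Tgtp1, minus), chr11:49064254-49064313 (Tgtp2, minus), chr3:142620579-142620638 (Gbp2, plus) and chr11:53769898-53769957 (Irf1, plus), all upstream of the start site. In the 4 GTPase promoters GAS stands just before an ISRE core, in Gbp2 only the ISRE core is marked, and in Irf1 only GAS.

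The genes behind these promoters were among those that fell. Igtp was at 142, 154 and 133 TPM in the tumours and 753, 753 and 724 TPM in the cultures (5.21-fold lower, adjusted p = 5.3e-08), and Irgm2 was at 72.3, 71.9 and 60.04 TPM against 167, 173 and 158 TPM (2.44-fold lower). Tgtp1 was at 138, 137 and 110.1 TPM against 914, 891 and 884 TPM and Tgtp2 at 116, 109 and 93.8 TPM against 608, 583 and 569 TPM. These neighbouring genes are near copies, as are several guanylate-binding proteins, so the split of reads between copies is uncertain. Gbp2, a guanylate-binding protein that acts against intracellular microbes, was at 232, 278 and 235 TPM against 1390.1, 1376 and 1313 TPM (5.47-fold lower). For all 5 genes every tumour lay below every culture.

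The largest falls in the list were in Nos2 and Gbp10. Nos2, the inducible nitric oxide synthase, was at 0.64, 0.57 and 0.45 TPM in the tumours and 93.7, 88.1 and 68.8 TPM in the cultures (151-fold lower). Gbp10 was at 2.57, 4.54 and 2.53 TPM against 209.9, 244 and 199 TPM (67.8-fold lower). Gbp4 was at 22.8, 30.3 and 21.2 TPM against 365, 403 and 333 TPM, and Wars, a tryptophan-tRNA synthetase, was at 29.3, 37.1 and 31.9 TPM against 270.2, 266 and 248 TPM. No tumour came near a culture for any of the 4. Cxcl9 and Cxcl10, chemokines that draw CXCR3-bearing T cells, were at 58.7, 72.9 and 67.04 TPM and 123, 98.3 and 76.5 TPM in the tumours, against 153, 149 and 145 TPM and 288, 253 and 280.3 TPM in the cultures. Serping1, an inhibitor of complement C1, was the member that rose, at 61.6, 89.96 and 63.9 TPM against 6.70, 6.57 and 6.45 TPM, and Socs1, a brake on the receptor, was at 12.9, 11.6 and 9.32 TPM against 6.24, 4.67 and 5.79 TPM (difference 0.90, not called).

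Genes of the type I interferon response did not follow one direction. Of 30 genes 8 were higher and 4 lower. Their median of -0.07 turned to 0.01 with median-ratio scaling, 0.17 with quantile normalization and 0.08 among protein-coding genes. Isg15, a ubiquitin-like modifier, was at 313, 270.2 and 254 TPM in the tumours and 299.6, 324 and 345 TPM in the cultures, and the ranges overlapped. Ifi27l2a was the largest rise, at 437, 259.7 and 315 TPM against 1.54, 1.17 and 1.14 TPM, and Oas2, a sensor of double-stranded RNA, was at 24.7, 13.1 and 9.13 TPM against 1.55, 2.06 and 1.51 TPM. Rsad2, the antiviral enzyme viperin, and Cmpk2, encoded beside it, fell, with Rsad2 at 4.07, 3.44 and 2.10 TPM against 29.3, 28.3 and 29.9 TPM and Cmpk2 at 6.65, 4.94 and 4.59 TPM against 29.8, 38.4 and 30.7 TPM.

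**Figure D3:**
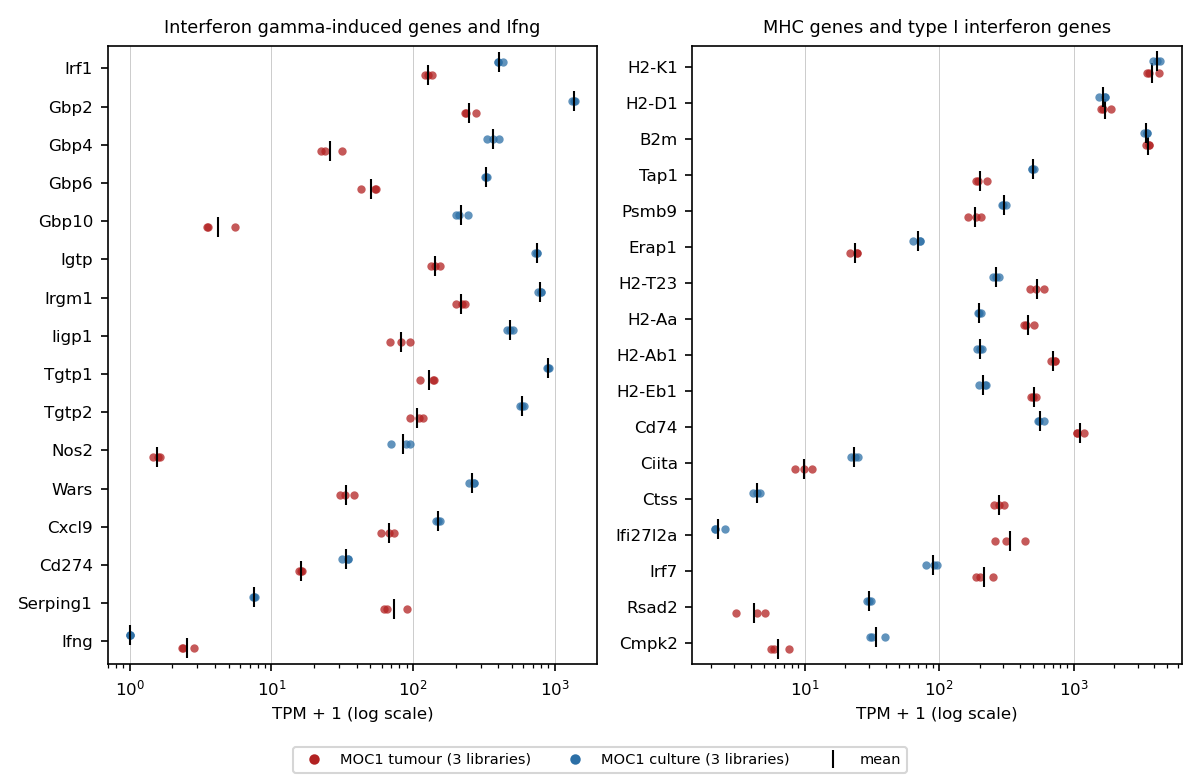
TPM + 1 (log axis) of interferon gamma-induced genes with Ifng, and of antigen presentation and type I interferon genes, in the 3 MOC1 tumour and 3 MOC1 culture libraries; each point is a library and each bar a group mean. Nos2 and Gbp10 stood lowest in the tumours against the cultures, the 2 groups overlapped for H2-K1, H2-D1 and B2m, and H2-Ab1, H2-Aa, H2-Eb1 and Ctss stood higher in the tumours.

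The abundant MHC class I genes overlapped between the groups. H2-K1, a classical heavy chain, was at 4292, 3631 and 3511 TPM in the tumours and 4377, 3923 and 4173 TPM in the cultures (difference -0.13, SE 0.09, adjusted p = 0.22). H2-D1, the other heavy chain, was at 1885, 1606 and 1670.1 TPM against 1546, 1708 and 1709.5 TPM, and B2m, their light chain, was at 3656, 3634 and 3464 TPM against 3531, 3317 and 3548 TPM. The ranges of all 3 overlapped, and a difference that misses the threshold does not show equal levels. Of 22 genes of class I presentation 5 were lower and 1 was higher. The share that was lower lay near the 19.7% of all tested genes and above the 13.5% of protein-coding genes. Tap1, a chain of the peptide transporter, was at 226, 194 and 186 TPM against 492, 507 and 493 TPM (2.46-fold lower), and Erap1, a peptide-trimming protease, was 3.01-fold lower. The others that fell were Psme1 and Psme2, subunits of a proteasome activator, and Pdia3, a chaperone of peptide loading, with differences of -1.06, -1.06 and -1.11. All 3 were under 1 in size among protein-coding genes after rescaling, and Psme1 and Psme2 also lost their calls without tumour library 4. H2-T23, the non-classical Qa-1 chain that NK receptors read, rose to 599, 522 and 475 TPM against 277, 252 and 263 TPM, a difference of 1.00 that fell to 0.91 without tumour library 3 and to 0.97 without culture library 5, both under the rule.

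MHC class II genes were higher in the tumours while their activator was lower. Of 12 genes, 7 were higher and 1 was lower, with a median of 1.22; 3 of the 7 were under 1 TPM in every culture. H2-Ab1, a class II beta chain, was at 674, 726 and 724 TPM in the tumours and 209, 192 and 202 TPM in the cultures (3.53-fold higher, adjusted p = 1.1e-07). H2-Aa and H2-Eb1 were 2.31-fold and 2.37-fold higher. Ciita, the activator that class II genes need, was the member that fell, at 8.86, 10.4 and 7.47 TPM against 22.7, 23.8 and 20.99 TPM. Cd74, the invariant chain, was at 1058, 1204 and 1067 TPM against 599, 544 and 553 TPM, a difference of 0.97 that was not called although the groups did not overlap. Ctss, a protease that trims the invariant chain, was at 257, 305 and 277 TPM against 3.42, 3.63 and 3.16 TPM. Macrophage markers moved with these genes, with 12 of 12 tested higher. Dendritic cell markers were mixed: 5 of 6 tested were higher, 4 of them under 1 TPM in every culture. The list's summed level was 111.1 to 137.4 TPM in the tumours against 254.4 to 269.7 TPM in the cultures, since Fscn1 fell. Fscn1, an actin-bundling protein, was at 74.7, 81.6 and 70.7 TPM against 251, 266 and 251 TPM. Itgax, an integrin of dendritic cells and macrophages, was at 21.8, 29.1 and 21.4 TPM in the tumours and listed at 0 in the cultures. The part of those cells in the class II values was not tested.

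Ligands for receptors on T cells moved both ways. Of 25 members 20 were tested, 9 were higher and 2 were lower, with a median of 0.81; 5 of the 9 were under 1 TPM in every culture. Cd274, which encodes PD-L1, was at 15.2, 15.5 and 14.5 TPM in the tumours and 33.4, 33.97 and 30.4 TPM in the cultures (2.16-fold lower, adjusted p = 9.4e-06), and its difference of -1.06 was under 1 in size after rescaling to protein-coding genes. Nectin2, a ligand of TIGIT, was at 30.3, 32.4 and 32.6 TPM against 70.95, 63.6 and 67.7 TPM and was also lost as a call in that setting. Pdcd1lg2, which encodes PD-L2, was at 2.53, 2.59 and 2.35 TPM in the tumours and listed at 0 in the cultures, and so was Cd86, a ligand of CD28 and CTLA-4, at 4.37, 6.06 and 5.04 TPM. Both ligands are found on myeloid cells, whose markers were higher in all tumours, and the part of those cells was not tested. Ceacam1, an adhesion protein and ligand of TIM-3, rose 3.26-fold, to 163, 174 and 165 TPM from 51.8, 52.9 and 48.95 TPM. Vsir, which encodes the checkpoint protein VISTA, was at 13.2, 18.7 and 15.1 TPM against 0.99, 0.58 and 1.23 TPM.

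Chemokines moved both ways, with the more abundant ones lower. Of 33 members 28 were tested, 17 were higher and 6 lower, with a median of 2.12. Of the 17, 12 were under 1 TPM in every culture. The summed level was lower in the tumours, at 1022 to 1195 TPM against 2330 to 2501 TPM. Of the 6 that fell, 3 were ligands of the neutrophil receptor CXCR2, and the others were Cxcl9, Cxcl10 and Ccl20. Ppbp was at 248, 307 and 277 TPM in the tumours and 1149.96, 1089 and 1131 TPM in the cultures (4.05-fold lower), Cxcl5 at 87.8, 86.2 and 66.6 TPM against 373, 334 and 351 TPM, and Cxcl1 at 36.3, 43.3 and 25.9 TPM against 270.4, 266 and 268 TPM. Neutrophil markers moved the opposite way, as given above. Ccl8, a monocyte attractant, was the largest rise in the list, at 155, 93.5 and 103 TPM against 0, 0.23 and 0.38 TPM. Ccl6, Ccl7 and Ccl21a were at 52.2, 38.3 and 40.4, 21.5, 20.2 and 16.5 and 9.54, 24.8 and 16.01 TPM in the tumours and at most 1.13 TPM in any culture. Cx3cl1, which recruits CX3CR1-bearing cells, was at 51.7, 48.8 and 40.2 TPM against 16.7, 15.8 and 14.5 TPM.

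Il24 showed the largest fall of a protein-coding gene by the naming rule. This cytokine of the IL-10 family was at 2.67, 2.96 and 2.90 TPM in the tumours and 325, 322 and 321 TPM in the cultures (114-fold lower, log2 difference -6.40, SE 0.07, adjusted p = 1.3e-09). Of 26 inflammatory cytokines 21 were tested, 7 were lower and 5 higher. Of the 5, 2 were under 1 TPM in every culture, and of the 7, 1 was under 1 TPM in every tumour. The list's median of -0.12 became 0.15 among protein-coding genes. Csf3, the granulocyte growth factor, was at 4.34, 3.95 and 3.37 TPM against 96.6, 81 and 79.6 TPM (22.1-fold lower), and Lif, a cytokine of the IL-6 family, was at 19, 20.01 and 14.7 TPM against 138, 137 and 125 TPM. Tslp, an epithelial alarm cytokine, was at 1.09, 0.32 and 0.32 TPM against 10.7, 8.74 and 9.82 TPM. Each of these cytokines was lower in every tumour than in any culture. Il1b, a cytokine of myeloid cells, rose 43.6-fold while Il1a, a relative that keratinocytes store, fell, at 10.7, 10.9 and 9.57 TPM against 76.8, 67.6 and 68.1 TPM. Tgfb3, a TGF-beta ligand, was at 55.3, 75.9 and 58.5 TPM against 5.52, 5.39 and 5.30 TPM.

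Of 18 complement genes tested, 16 were higher, with a median of 2.94, and C3 and Cr1l were not called. Of the 16, 10 were under 1 TPM in every culture and had to be higher, and of the other 8 tested 6 were higher. C3, the central protein of the cascade, was at 56.4, 34.4 and 32.7 TPM in the tumours and 35.3, 33.96 and 26.8 TPM in the cultures, and the ranges overlapped. C1s1, a protease of the C1 complex, was at 194, 179.8 and 139.6 TPM against 49.2, 50.6 and 46.8 TPM, and Cfb, of the alternative pathway, was 26.3-fold higher. Among antimicrobial proteins 9 of 15 tested were higher and 6 were not called; 5 of the 9 were under 1 TPM in every culture. Ltf, the iron-binding lactoferrin, was at 915, 1103 and 1159 TPM against 174, 171 and 179 TPM (6.06-fold), whereas Wfdc2, Slpi and Lcn2 overlapped between the groups.

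Proliferation genes were lower in the tumours. Of 35 cell cycle genes 33 were lower, with a median of -1.69; Birc5 and Cenpa had differences of -0.99 and -0.65 and were not called. Their summed level was 1623 to 1797 TPM in the tumours and 5773 to 5978 TPM in the cultures. Top2a, a topoisomerase of dividing cells, was at 113, 114 and 97.2 TPM against 575, 585 and 566 TPM (5.32-fold lower, log2 difference -2.40, SE 0.07, adjusted p = 7.2e-08). Rrm2, a subunit of ribonucleotide reductase, was at 31.4, 36.1 and 32.1 TPM against 274, 291 and 276 TPM, and Bub1, a kinase of the spindle checkpoint, was at 12.1, 13.5 and 10.1 TPM against 95.1, 123 and 109.8 TPM. Ccne1, the cyclin of S-phase entry, was at 14.6, 14.3 and 14.2 TPM against 112, 111 and 110.5 TPM, and Ccnd1, the cyclin that mitogens induce, was at 211, 242 and 220 TPM against 714, 699.8 and 685 TPM. No tumour reached the lowest culture for any of these 5. The RNA of host cells, given above, differed too, and its part was not tested.

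Inhibitors of the cell cycle and p53 targets had no common direction. Of 20 inhibitors and p53 targets 8 were higher and 12 not called, with a median of 0.36, and 11 of the 20 differences were above 0. For 7 of the 20 every tumour lay below every culture, which is near the share of 39.9% over all tested genes. Phlda3, a p53 target that restrains AKT, was at 405, 428 and 403 TPM in the tumours and 92.8, 89.98 and 95.5 TPM in the cultures (4.44-fold higher). Cdkn2b, the inhibitor p15, was at 60.5, 63.2 and 65.03 TPM against 15.8, 14.1 and 14.97 TPM, and Trp53inp1, another p53 target, was 13.3-fold higher. Mdm2, the p53 ligase, was at 43.2, 37.9 and 33.6 TPM against 39.1, 41.4 and 33.9 TPM, and the groups overlapped.

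Genes of cholesterol and of amino acid synthesis were mostly lower in the tumours. Of 26 genes of cholesterol synthesis and uptake 17 were lower and 2 higher, with a median of -1.40 and a summed level of 754.1 to 879.6 TPM against 2056 to 2123 TPM. Lss, the lanosterol synthase, was at 13.7, 11.4 and 15.2 TPM in the tumours and 64.5, 70.4 and 65.7 TPM in the cultures (4.97-fold lower, adjusted p = 5.9e-07). Fdps, of the isoprenoid branch, was at 93.2, 116 and 109.5 TPM against 392, 383 and 362 TPM, and each tumour lay below each culture for both enzymes. The 2 members that rose, Abca1 and Abcg1, export cholesterol instead, and both were under 1 TPM in every culture. Abca1 was at 11.3, 9.82 and 8.26 TPM against 0.05, 0.06 and 0.02 TPM. Both exporters are strongly expressed by macrophages, whose markers were higher in all tumours, and the part of macrophages in these values was not tested. A sterol response element searched as ATCAC, any base and CCAC was in none of the 17 promoters matched and in 0.226% of all promoters. With a pattern that rare, finding none in 17 promoters does not show that these genes lack such elements.

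Genes of amino acid stress and serine synthesis had a median difference of -2.27. Of 22 members 21 were tested, 16 were lower and 5 not called, and their summed level was 688.6 to 778.1 TPM in the tumours against 3162 to 3216 TPM in the cultures. Mthfd2, a mitochondrial enzyme of one-carbon metabolism, was at 9.16, 10.1 and 9.69 TPM against 177, 176 and 174 TPM (18.2-fold lower, log2 difference -4.05, SE 0.07, adjusted p = 7.2e-09). Psat1 and Phgdh, enzymes of serine synthesis, were at 38.4, 39.4 and 32.5 TPM and 54.04, 56.4 and 50.5 TPM in the tumours, against 375, 382 and 387 TPM and 439.98, 472 and 439.99 TPM in the cultures. Slc7a5, an importer of large amino acids, was at 11.96, 14.7 and 11.7 TPM against 132, 138 and 128 TPM. The groups were well apart for all 4 genes. Atf4, the transcription factor of this response, was at 178, 180.2 and 164 TPM against 442, 410.2 and 416 TPM (2.43-fold lower), while Ddit3, its partner in cell stress, differed by -0.60 and was not called.

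Promoters of this list are printed for the element through which ATF4 acts. It was searched as TGATGNAA on both strands of the 250 bases before the start site. It was in 7 of 19 matched members (36.8%) and in 3.91% of all promoters, with 4 of the 13 matched members that fell among them. The other carriers did not fall by the rule: Slc7a11 and Vldlr were not called and Fgf21 was under the filter. No tested member of the list had a difference above -0.298, so Slc7a11 and Vldlr were lower too, without reaching the rule. Whether the element marks the members that fell was not tested. Capitals mark the element in carriers that fell, Asns, which makes asparagine, and Chac1, which degrades glutathione.
Asns: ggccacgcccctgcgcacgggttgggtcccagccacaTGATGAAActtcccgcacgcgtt
Chac1: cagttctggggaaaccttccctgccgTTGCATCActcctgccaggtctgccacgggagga
They lie at chr6:7693210-7693269 on the minus strand and chr2:119351023-119351082 on the plus strand of GRCm38.p6, from RefSeq. Asns was at 40.9, 39.03 and 34.5 TPM in the tumours and 359, 345 and 337 TPM in the cultures (9.10-fold lower), and Chac1 was at 1.34, 2.18 and 2.02 TPM against 27.9, 22.9 and 25.6 TPM (13.8-fold lower).

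Energy metabolism showed smaller differences. Of 19 tested glycolysis genes 5 were lower and 2 higher, 1 of the 2 under 1 TPM in every culture, with a list median of -0.82. Eno1, an abundant glycolytic enzyme, was at 895, 843 and 874 TPM in the tumours and 1930.2, 2077 and 1943 TPM in the cultures (2.28-fold lower), and Gapdh was at 2067, 2106 and 2279.9 TPM against 3986, 3699 and 3721 TPM, a difference of -0.82 that was not called. Hypoxia-induced genes had no common direction: 5 of 22 were higher and 3 lower. Car12, a carbonic anhydrase, was at 119, 88.6 and 88.3 TPM against 34.8, 37.9 and 32.4 TPM, whereas Vegfa, the vessel growth factor, was at 106, 62.03 and 50.2 TPM against 83.4, 79.3 and 64.5 TPM and overlapped, with tumour library 3 the highest of all 6. Of 29 nuclear genes of the respiratory chain 6 were higher and 1 lower. For the hypoxia and respiratory chain lists the share called higher lay near the 23.0% of all tested genes.

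**Figure D4:**
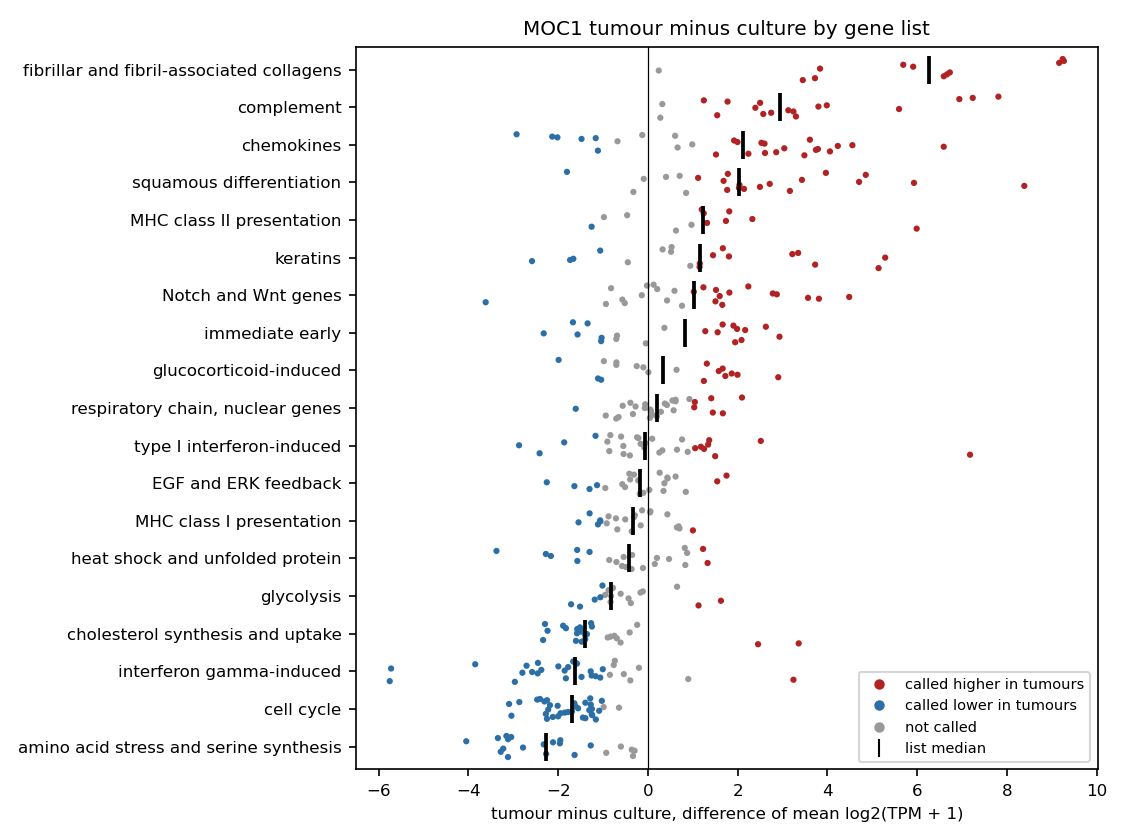
Tumour minus culture difference of mean log2(TPM + 1) for the tested genes of 19 lists in MOC1; each point is a gene, coloured by its call, and each bar a list median. Medians ran from -2.27 for amino acid stress and serine synthesis to 6.26 for collagens, against 0.03 over all tested genes.

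Genes that answer the hormones of the medium were read for their own sake, since hydrocortisone and EGF were added to the cultures. Of 18 tested glucocorticoid-induced genes 8 were higher, 2 of them under 1 TPM in every culture, and 3 lower. The count of lower genes was 1 with quantile normalization. The list's median of 0.33 became -0.045 with TPM of at least 5 in 3 libraries. Fkbp5, a chaperone partner of the glucocorticoid receptor and one of its most direct targets, was at 11.9, 13.9 and 12.3 TPM in the tumours and 52.5, 57.1 and 50.7 TPM in the cultures (4.21-fold lower, adjusted p = 4.7e-07). Tsc22d3, which encodes the glucocorticoid-induced leucine zipper, was at 18.8, 22.99 and 22.3 TPM against 43.1, 42.4 and 43.5 TPM, a difference of -0.98 that was not called. Other members ran the opposite way: Cebpd, a transcription factor, was at 33.1, 28 and 29.8 TPM against 3.64, 2.68 and 3.24 TPM, Glul, the glutamine synthetase, was 3.71-fold higher and Sgk1, a kinase of salt transport, was 2.52-fold higher. Of 23 tested EGF and ERK feedback genes 2 were higher and 4 lower, with a median of -0.18. Fosl1, an AP-1 subunit, was at 1.89, 2.82 and 3.57 TPM against 20.3, 15.4 and 14.7 TPM, and Ereg, an EGF receptor ligand, was 3.04-fold lower. Spry1, an inhibitor of receptor signalling, was at 41.98, 47 and 42.3 TPM against 12.4, 12.2 and 12.2 TPM (3.57-fold higher). Dusp6, a phosphatase that ERK induces, was at 204, 258 and 217 TPM against 269, 302 and 268 TPM, a difference of -0.31 that was not called.

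Immediate early genes and chaperones changed in part. Of 20 immediate early genes 10 were higher, 1 of them under 1 TPM in every culture, and 6 lower, with a median of 0.82. Jund, an AP-1 subunit, was at 175, 177 and 181 TPM in the tumours and 34.1, 22.4 and 28.5 TPM in the cultures (6.29-fold higher), and Klf2, a factor of vessel and immune cells, was 20.9-fold higher. Fos, the partner of Jun proteins, was at 24.7, 28.2 and 20.8 TPM against 85.8, 84.6 and 69.9 TPM, and so went the other way. Of 22 heat shock and unfolded protein genes 6 were lower and 2 higher. Hsp90aa1, the inducible HSP90 chaperone, was at 146, 174 and 142 TPM against 1501, 1683 and 1624 TPM (10.4-fold lower), and Hspd1, the mitochondrial chaperonin, was 4.86-fold lower.

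Of 25 tested Notch and Wnt genes 13 were higher, 1 was lower and 11 were not called, with a median of 1.02. Of the 13, 6 were under 1 TPM in every culture. Notum, a secreted enzyme that inactivates Wnt proteins, was at 34.7, 28.6 and 33.6 TPM in the tumours and 0.61, 0.58 and 0.27 TPM in the cultures (66.3-fold higher). Rnf43, which removes Wnt receptors, was at 26.1, 16.8 and 12.4 TPM against 0.28, 0.35 and 0.35 TPM, and Lgr6, a receptor for R-spondins, was 17.2-fold higher. Axin2, a direct Wnt target chosen here after its values were seen, was at 42.1, 34.5 and 32.96 TPM against 4.58, 4.24 and 3.52 TPM. Each of these was higher in every tumour than in any culture. Wnt7a, a Wnt ligand of epithelium, was the member that fell, at 0.05, 0.12 and 0.17 TPM against 14.2, 12.6 and 11.3 TPM (112-fold lower).

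Targets of TGF-beta and YAP were mixed. Of 20, 8 were higher and 3 lower, with a median of 0.37. Tgfbi, a matrix protein induced by TGF-beta, was at 149.6, 152 and 140.4 TPM in the tumours and 6.29, 5.47 and 5.55 TPM in the cultures (25.5-fold higher), and Ccn2, a shared target of both pathways, was 5.50-fold higher. Axl, a receptor kinase that YAP induces, was at 78.6, 92.6 and 77.8 TPM against 323, 389.7 and 319.6 TPM (4.14-fold lower). Fibroblast markers, given above, were also higher in the tumours than in the cultures, and their part was not tested. Among the tumours they did not follow Tgfbi, since library 3 had the lowest fibroblast sum and library 5 the lowest Tgfbi. Detoxification genes of the NRF2 pathway had a median of -0.06 whose sign turned with the scaling. Of 20, 5 were higher and 3 lower, against 23.0% and 19.7% of all tested genes and 23.3% and 13.5% of protein-coding genes. Aldh1a3, an enzyme that makes retinoic acid, was at 59.8, 62.3 and 63.4 TPM against 5.07, 5.25 and 3.76 TPM (13.2-fold higher).

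Adhesion genes, matrix enzymes and regulators of epithelial state moved in both directions. Of 15 integrins and partners 3 were higher, 1 of them under 1 TPM in every culture, and 2 lower. All tested genes gave 23.0% higher and 19.7% lower, and protein-coding genes 23.3% and 13.5%. Itga3, a laminin receptor chain, was at 89.3, 95 and 75.7 TPM in the tumours and 572, 649 and 547 TPM in the cultures (6.80-fold lower), while Itgb8, which activates TGF-beta, was 10.6-fold higher. Of 15 basement membrane genes 5 were higher, 2 of them under 1 TPM in every culture, and 2 lower. Col4a1, a chain of collagen IV, was at 38.3, 50.5 and 45.9 TPM against 211, 241 and 203 TPM. Col7a1, of anchoring fibrils, was at 159, 81.7 and 81.2 TPM against 13.01, 12.5 and 9.23 TPM. The 2 collagens thus moved in opposite directions. Among 16 tested proteases and inhibitors 10 were higher, 6 of them under 1 TPM in every culture, and 2 lower, with Mmp12, the macrophage elastase, at 59.8, 53.9 and 41.2 TPM against 0.10, 0.07 and 0.05 TPM. Of 20 epithelial and mesenchymal regulators 8 were higher, 3 of them under 1 TPM in every culture, and 1 lower. Sox2, a squamous lineage factor, was at 19.6, 18.97 and 21.5 TPM against 3.45, 2.83 and 2.27 TPM. Snai1 and Zeb2, factors found in mesenchymal cells, were at 4.17, 7.42 and 4.74 TPM and 6.17, 7.77 and 5.96 TPM in the tumours. Fibroblast markers were higher in all tumours too, and the part of fibroblasts in these values was not tested. Ptgs2, the prostaglandin enzyme COX-2, was at 1.06, 1.74 and 0.93 TPM against 32.5, 34.1 and 30.2 TPM (25.9-fold lower), and Arg1, which consumes arginine, was at 309, 312 and 328 TPM against 140.01, 131 and 132 TPM (2.35-fold higher).

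The same contrast was set beside MOC1E1, the other line with bulk RNA in the same 2 tables, whose culture columns carry the same tag. Of 15116 genes tested there, 3517 (23.3%) were higher in the tumours and 2790 (18.5%) lower. Of the genes called in MOC1, 2634 of those higher (73.31%, and 74.89% of the MOC1E1 calls) and 2338 of those lower (75.96%, and 83.8%) were called in the same direction in MOC1E1, with 3 and 10 called in the opposite direction. These libraries are not shared between the lines, but the 2 tables are, so the overlap holds any effect of the tables. A shift common to one table cancels when the difference in MOC1 is set against that in MOC1E1. By that test the MOC1 difference was larger for 497 of 16813 genes (2.96%) and smaller for 605 (3.6%).

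Keratins and interferon genes were among those that differed between the lines. Of 20 keratins tested for this, 10 had the larger tumour minus culture difference in MOC1 and the other 10 were not called. Krt13 was at 4.92, 7.41 and 2.38 TPM in MOC1E1 tumours and 4.64, 2.81 and 4.11 TPM in MOC1E1 cultures, against the 47.1-fold rise in MOC1 (difference of differences 5.08, adjusted p = 1e-05). For the genes of interferon gamma, 10 of 31 had the lower difference in MOC1 and 21 were not called, and for those of type I interferon 20 of 30 were lower and 10 not called. Cxcl9 was at 25.5, 32.1 and 146 TPM in MOC1E1 tumours, with library 3 the highest, and 9.61, 9.83 and 10.2 TPM in MOC1E1 cultures. Nos2 was at 0.45, 0.26 and 0.67 TPM and 3.26, 2.16 and 2.80 TPM in those groups. For Cxcl9 and Nos2 the MOC1 cultures held more than the MOC1E1 cultures, while the tumour ranges of the lines overlapped. These values do not speak for the other interferon genes. Without MOC1E1 tumour library 3, 10 interferon gamma genes and 19 type I genes were lower by this test.

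Class II and amino acid stress genes also had lower differences in MOC1, in 7 of 12 and 9 of 21 genes. H2-Ab1 was at 662, 634 and 661 TPM in MOC1E1 tumours and 59.2, 64.8 and 67.1 TPM in MOC1E1 cultures (difference of differences -1.52, adjusted p = 1e-06), near the MOC1 tumours and below the MOC1 cultures. Skeletal muscle genes had the larger difference in MOC1 in all 10 cases. Of 35 cell cycle genes Ccne1 alone was called. The median cell cycle difference was -1.69 in MOC1 and -1.83 in MOC1E1, and Top2a was at 80.5, 107 and 119.96 TPM in MOC1E1 tumours and 573, 574 and 582 TPM in MOC1E1 cultures.

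**Figure D5:**
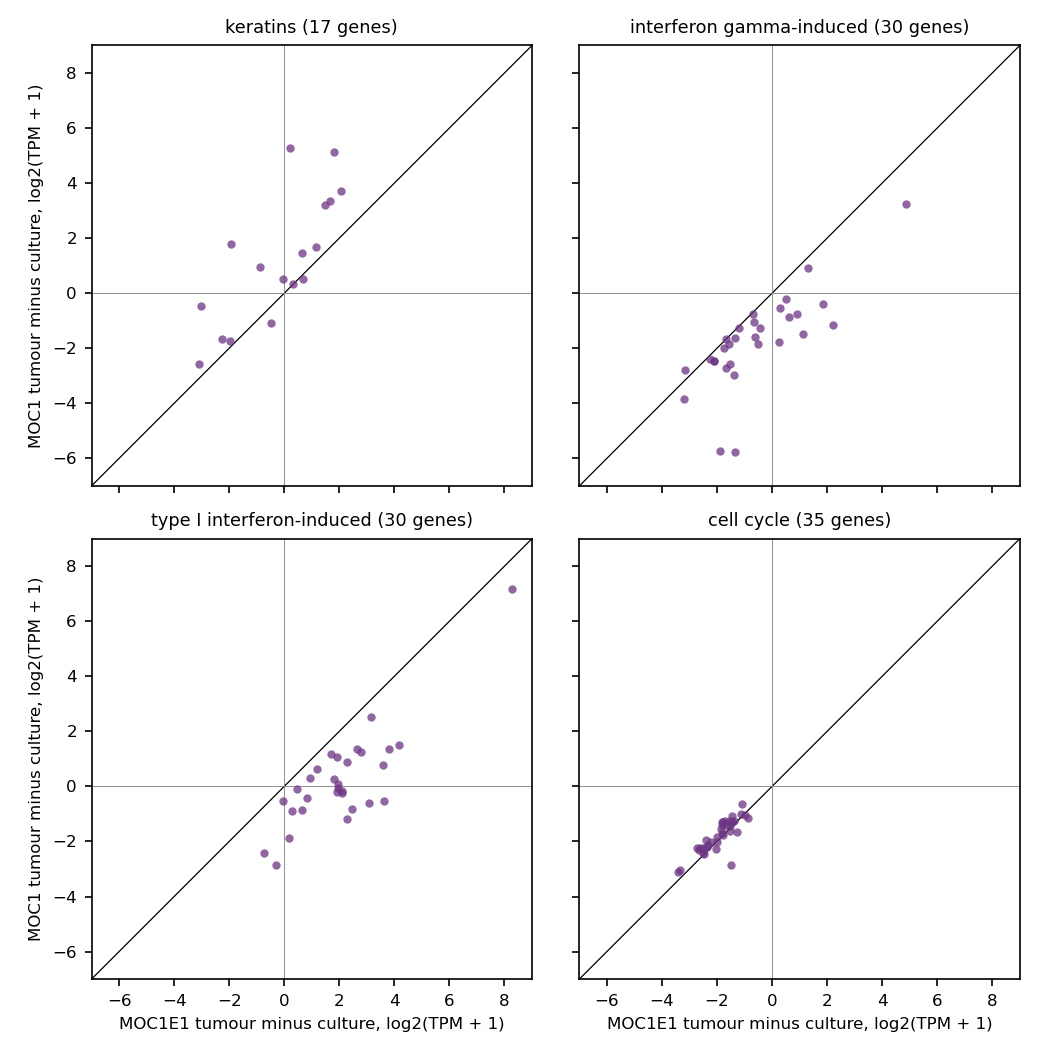
Tumour minus culture difference of mean log2(TPM + 1) in MOC1 (vertical axis) against MOC1E1 (horizontal axis) for genes of 4 lists tested in both lines; each point is a gene and the diagonal marks equal differences. All 30 type I interferon genes and 28 of 30 interferon gamma genes lay below the diagonal, and 2 of 17 keratins did. Cell cycle genes lay along it with 8 of 35 below. The share of all tested genes below the diagonal was not counted, so these counts describe the points only.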

How the data were processed

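The files used are 2 tables of TPM, a length-normalised transcript abundance, that the authors deposited, one for tumours and one for cultured cells, with a value per Ensembl identifier and library. The submitters' processing notes name Trimmomatic 0.36, kallisto 0.46.0 and DESeq2 and the builds mm10 and GRCh38, with no role for each, so the build and annotation of each are not given in the sources used here. TPM keeps no depth.

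Symbols came from a list of gene names, which matched 55394 of the 55573 identifiers in both tables. Genes with TPM of at least 1 in at least 3 of the 6 libraries were tested on log2(TPM + 1) with limma 3.58.1 (mean-variance trend, no covariate) in R 4.3.3, with the data.table package (version 1.17.8) and Benjamini-Hochberg adjustment over all tested genes. MOC1 and MOC1E1 were compared in a fit over the 12 bulk libraries. The script was tested on simulated data. Alternatives were other pseudocounts, filters and scalings, no trend, a shared spread, each library left out in turn and, added after seeing the data, protein-coding genes alone. The members and gene lists were chosen with earlier results of these data known.

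Named genes were the 12 largest rises and falls with a mean of at least 20 TPM in the higher group and no overlap between groups, without symbols that start with Gm and a digit or end in Rik. To these were added the 4 largest called and the 3 most abundant members of each list, all members of the interferon gamma, MHC, keratin, chemokine, checkpoint, glucocorticoid and EGF lists, and the 10 clearest differences between the lines. Chosen after their values were seen were Asns, Axin2, Birc5, C3, Cd4, Cenpa, Cfb, Cr1l, Ddit3, Dmkn, Dsc2, Dsc3, Dsp, Epcam, Fos, Ifngr1, Il1a, Ivl, Krt71, Lor, Lss, Ly6g, Mdm2, Ms4a1, Trp63 and Tslp. Some members of the lists are not reported here. Promoter sequences are from RefSeq (GRCm38.p6).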

Additional observations from a re-analysis of the deposited data

Results flagged for a closer look

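The 10 named genes below were picked out because the tumour minus culture difference differed between MOC1 and MOC1E1 by a test of that difference itself (limma, Benjamini-Hochberg adjusted p from 9e-08 to 3.2e-07). Values are log2 differences of differences, MOC1 minus MOC1E1. A shift common to a whole table cancels in them, except for a gene listed at 0 throughout one table, as AC151990.1 was.

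Epithelial surface genes stood out on the higher side. Psca, a surface antigen of epithelial cells, differed by 4.39: it was at 462, 489.5 and 604 TPM in MOC1 tumours and 13.4, 12.1 and 13.5 TPM in MOC1 cultures, against 33.1, 28.04 and 28.99 TPM and 17.5, 18.8 and 13.8 TPM in MOC1E1. Krt79 differed by 3.35; its MOC1E1 levels were 258, 306 and 287 TPM in tumours and 83.5, 77.6 and 81.99 TPM in cultures. For both genes the MOC1 tumours held the highest values of the 12 libraries.

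On the lower side several genes were at nearer levels in the tumours of both lines than in the cultures. Cd74 differed by -1.86, with MOC1E1 tumours at 1056, 1049 and 1074 TPM and MOC1E1 cultures at 143, 146 and 155 TPM, and H2-Eb1 differed by -1.87, with MOC1E1 at 472, 466 and 485 TPM and 53.7, 54.3 and 54.2 TPM. Both belong to class II presentation. Tmem176a and Tmem176b, neighbouring membrane protein genes, differed by -2.48 and -2.73; Tmem176b was at 1061, 896 and 900.04 TPM and 370.2, 338 and 331 TPM in MOC1 and 608, 596 and 633 TPM and 28.4, 35.6 and 34.7 TPM in MOC1E1. Ak3, a mitochondrial adenylate kinase, differed by -1.84, with MOC1E1 cultures at 10.1, 10.5 and 9.99 TPM and MOC1 cultures at 45.1, 43.99 and 45.3 TPM. MOC1E1 cultures were the lowest group for all 5 of these genes.

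Stra6, a receptor for retinol transport, differed by -3.98: it was at 224, 227 and 222 TPM and 70.4, 66.7 and 66.03 TPM in MOC1, and at 72.9, 75.6 and 112 TPM and 0.60, 0.77 and 0.64 TPM in MOC1E1. Trpv6, a calcium channel, differed by -3.54 and moved in opposite directions, from 20.6, 20.9 and 20.8 TPM in cultures to 9.61, 9.84 and 7.70 TPM in tumours of MOC1 and from 2.34, 2.87 and 2.73 TPM to 18.7, 17.4 and 19.1 TPM in MOC1E1. AC151990.1, a gene model that was listed at 0 in every tumour, differed by -3.52, a value that the cultures alone set. It was at 10.9, 13.5 and 11.3 TPM in MOC1 cultures and 0.21, 0.05 and 0.10 TPM in MOC1E1 cultures.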

How the results depend on the processing

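The counts of called genes moved by over 1.5 times in 5 cases. With a pseudocount of 5, 1819 genes were higher and 1977 lower in MOC1 tumours, and 474 differed between the lines, against 3593, 3078 and 1102. With TPM of at least 5 in 3 libraries 2213 genes were higher. Among protein-coding genes without mitochondrial, ribosomal protein and histone genes, rescaled, 1424 were lower. A larger pseudocount shrinks the differences of low genes, and the higher filter tests fewer genes. The protein-coding setting both drops genes and rescales the rest, which moved the median by 0.15; without rescaling 1697 of all protein-coding genes were lower, and the cause of the smaller count was not tested. Leaving out each library in turn gave 3490 to 3761 higher, 2922 to 3155 lower and 1013 to 1165 that differed between the lines. No named gene or count reversed under the alternatives run. Of 392 named genes 40 lost their call with a pseudocount of 5, 18 with quantile normalization and 10 among protein-coding genes. The median of the type I interferon list ran from -0.19 to 0.05 when 1 library was left out. No paired analysis was possible because the columns are numbered 3 to 5 and 4 to 6 and do not carry the labels' replicate numbers. Depth is unknown for TPM, so values near 0 in either table may be absence or too few reads.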
